A study of Rattus norvegicus with 12 samples.

Results

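The resident macrophage genes described here were Cd68, Cd163, Csf1r, Itgam, Mrc1, Cd14, Aif1, Lyz2, Msr1 and Emr1. They were found by name: every probe of the array, control spots left out, whose gene name was 1 of these 10, which gave 13 probes of 30367. Csf1r, Itgam and Aif1 had a pair of probes each and the other 7 genes had 1. The array held 26514 gene names in all. Where a gene had a pair of probes, the brighter probe over 11 arrays stood for the gene in every count, and the dimmer one is given beside it.

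The samples were 12 colons of male Wistar rats weighing 200 to 250 g, each hybridised to its own one-colour array. Group C (C1 to C4) had stayed with the dam and received placebo. Group M (M5 to M8) had undergone neonatal maternal separation (NMS), for 180 min a day from postnatal day 2 to day 14, and also received placebo. Group D (D9 to D12) had undergone the same separation and received VSL#3, a mixture of probiotic bacteria. Gavage was daily in 100 µl from day 3 to day 60 in all 3 groups, and all 12 rats were submitted to colorectal distension before the colon was taken, so that none of the groups was undisturbed. Whether pups of a group shared a dam was not stated, and p-values measure the spread between these rats. The methods describe 11 arrays, and the fits here left out D12 accordingly. For each of the 10 genes the differences of Group D with D12 included are given as well.

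Resident macrophages lie in the lamina propria and in the muscle layer of the colon, where they engulf bacteria and dying cells. Blood monocytes replace many of them through life, and the receptor Csf1r keeps them alive. The genes fall by role into lysosomal and secreted proteins (Cd68, Lyz2), scavenger and endocytic receptors (Cd163, Mrc1, Msr1), the growth factor receptor Csf1r, the lipopolysaccharide co-receptor Cd14, and adhesion or cytoskeletal proteins (Itgam, Emr1, Aif1). Several of them are not restricted to macrophages: Lyz2, Itgam and Cd14 are also made by neutrophils and monocytes.

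All 13 probes were well above background on all 12 arrays. Levels are given as the log2 signal relative to the 75th percentile of the same array, a scale on which 0 is that percentile and 1 is a 2-fold step, and no level is compared between probes. Epithelial and smooth muscle markers, which define the wall of the colon, were well above background on all 12 arrays for 10 of 10 and 7 of 7 genes. The 8 arrays of Group C and Group M shared 1 slide and the 4 arrays of Group D lay on slide 2, scanned second. Slide and VSL#3 therefore cannot be told apart. Group M against Group C is a comparison within slide 1, but all arrays of Group C lay in row 1 of that slide and all of Group M in row 2. Separation and array row therefore cannot be told apart either. 3 rats stood apart from their groups in the genes described here. Rats of Group M and Group D were set against the mean of Group C, and each rat of Group C against the mean of the other rats of Group C. The median of the 10 genes was then 0.030, 0.43, -0.35 and -0.15 in C1 to C4, 0.50, -0.16, 0.74 and 0.28 in M5 to M8, and -0.39, -0.21, -0.21 and 0.19 in D9 to D12. The values of C1 to C4 are larger on this reference than against the mean of their whole group. M6 thus lay among the control rats, C2 lay among M5, M7 and M8, and D12 lay above every other rat given VSL#3. The main fits leave out D12, and the differences with it are given as well. Fits without M6 are given for several genes. Leaving out C2 is given by name only for Itgam and in the section on processing choices. M6 was picked by the values of these same genes. Fits without M6 therefore show how far a result rests on that rat, and they are not a test of Group M.

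**Figure D1:**
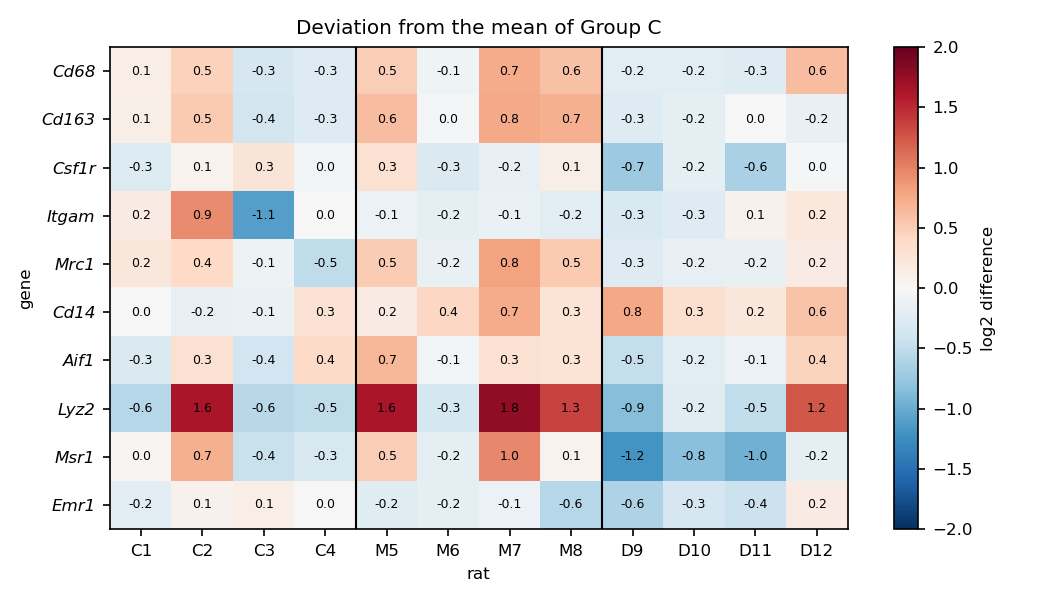
Log2 difference of each resident macrophage gene (rows) from the mean of Group C in each of the 12 rats (columns), with the value written in the cell and vertical lines between Group C, Group M and Group D. Each rat of Group C is set against the mean of the other rats of Group C. Lyz2 was high in C2, M5, M7, M8 and D12, and the column of M6 is pale among the columns of Group M.

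The probes are 60 bases long, and the pair for Itgam is shown because it can be read as 1 measurement made over much of the same sequence. The capitals mark the 34 bases of the longest run that both probes hold. The other 26 bases of each are not marked, although those right after the run are alike in part. By the file, the first probe lies on rn4 at chr1:187385524-187385583 and the second spans chr1:187385032-187385565, which is longer than a probe and so crosses an intron.
Itgam, brighter probe: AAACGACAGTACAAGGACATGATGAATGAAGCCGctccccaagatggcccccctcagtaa
Itgam, dimmer probe: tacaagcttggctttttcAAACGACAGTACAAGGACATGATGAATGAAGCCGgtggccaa

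The promoter windows of Cd68, Cd163 and Mrc1 are shown because Mrc1 was, of the 10 genes, the nearest in its values over the rats to both Cd68 and Cd163. Each holds 250 bases before and 50 after the start of the gene, from RefSeq on the build GRCr8, read along the strand of the gene. The capitals mark GAGGAA or its reverse complement, the core letters bound by PU.1, a transcription factor that macrophages need. The windows lie at chr10:54882392-54882691 on the minus strand, chr4:158770524-158770823 on the plus strand and chr17:82157475-82157774 on the plus strand.
Cd68: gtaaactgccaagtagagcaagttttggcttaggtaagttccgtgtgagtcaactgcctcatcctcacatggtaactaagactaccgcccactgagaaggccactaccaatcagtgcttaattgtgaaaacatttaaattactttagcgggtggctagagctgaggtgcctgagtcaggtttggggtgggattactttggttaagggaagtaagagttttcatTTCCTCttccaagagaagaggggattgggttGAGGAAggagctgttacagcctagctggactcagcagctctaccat
Cd163: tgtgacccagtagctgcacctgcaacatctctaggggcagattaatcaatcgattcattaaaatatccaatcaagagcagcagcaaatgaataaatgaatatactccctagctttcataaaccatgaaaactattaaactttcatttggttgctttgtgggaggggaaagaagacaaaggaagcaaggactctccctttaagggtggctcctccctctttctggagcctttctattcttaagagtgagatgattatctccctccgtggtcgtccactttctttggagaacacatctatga
Mrc1: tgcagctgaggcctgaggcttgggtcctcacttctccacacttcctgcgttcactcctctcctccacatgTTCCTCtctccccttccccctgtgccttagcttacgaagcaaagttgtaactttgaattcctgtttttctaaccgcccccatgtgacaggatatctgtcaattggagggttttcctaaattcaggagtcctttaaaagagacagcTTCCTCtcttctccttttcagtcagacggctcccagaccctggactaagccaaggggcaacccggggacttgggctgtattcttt
A window was found for 8 of the 10 genes. The letters GAGGAA were in 7 of the 8, in all but Cd163, and in 27.6% of 33469 rat promoter windows of the same length. The letters of C/EBP (TTGCNNAA) were in 3 of 8 against 10.6%, those of AP-1 (TGANTCA) were in 1 of 8, Cd68, against 7.33%, and those of NFkB (GGG, then any 5 bases, then CC) were in 4 of 8 against 47.3%. Both strands were searched. A match is a description of the letters, and binding was not measured.

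In Group M against Group C, 7 of the 10 genes had a higher mean and 3 a lower one, where 47.4% and 52.6% of all probes did. They had a median log2 difference of 0.37 where the median over all 30367 probes was -0.014. The differences ran from -0.27 for Emr1 to 1.10 for Lyz2. None of the 10 passed limma's adjusted p of 0.05 (0 genes, with adjusted p from 0.166 to 0.992), where 0.102% of all probes passed as higher and 0.105% as lower. At an unadjusted p of 0.05, 3 genes were higher (Cd68, Cd163 and Cd14, against a background of 9.86% of probes) and 1 was lower (Emr1, against 12.9%). With D12 in the fit, Cd163 and Cd14 were higher, against 8.38% of probes, and none of the 10 was lower, against 10.1%, so that the calls of Cd68 and Emr1 were lost. No gene passed the criterion of the methods, which is passed where the analysis of variance and Tukey's test both give an unadjusted p of at most 0.05 and the means lie 2-fold apart. Of all probes, 1.37% passed it as higher and 0.962% as lower. For none of the genes did the 4 rats of Group M lie apart from the 4 of Group C, whereas 4.07% of probes did so upwards and 5.17% downwards. Without M6, 4 genes passed the adjusted threshold as higher: Cd68, Cd163, Mrc1 and Lyz2. The background moved in the same way, to 7.52% of probes called higher without that rat.

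In Group D against Group M, 8 of the 10 genes had a lower mean and 2 a higher one, where 46.7% and 53.3% of all probes did. Their median log2 difference was -0.59, where that over all probes was 0.022, and the differences ran from -1.63 for Lyz2 to 0.041 for Cd14. No gene passed the adjusted threshold (0 genes, with adjusted p from 0.0775 to 0.994), where 0.079% of probes passed as lower and 0.0823% as higher. At an unadjusted p of 0.05, 7 genes were lower (Cd68, Cd163, Csf1r, Mrc1, Aif1, Lyz2 and Msr1), against 9.85% of all probes, and none was higher, against 11.8%. Msr1 was the 1 gene past the criterion of the methods, against 1.51% of probes called lower by it and 1.14% higher, and it passed with D12 too, against 0.56% of probes called lower. All 3 rats of Group D lay below all 4 of Group M for 4 genes, Cd68, Mrc1, Aif1 and Msr1, against 6.89% of probes. No gene lay above, against 9.06%. With D12 included, no gene was separated in this way, against 2.31% of probes, and 3 genes (Cd163, Mrc1 and Msr1) were lower at an unadjusted p of 0.05, against 5.92% of probes, with a median of -0.42. Without M6, 6 genes passed the adjusted threshold as lower (Cd68, Cd163, Mrc1, Aif1, Lyz2 and Msr1), against 7.45% of probes. Both comparisons use the values of Group M, so that a high or low rat there moves them in opposite directions.

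In Group D against Group C, 9 of the 10 genes had a lower mean and Cd14 a higher one, where 50.1% and 49.9% of all probes did. The genes had a median of -0.25 where that over all probes was -2.51e-04. No gene passed the adjusted threshold (0 genes, with a lowest adjusted p of 0.633), and 0.00329% of probes passed in each direction. At an unadjusted p of 0.05, Csf1r, Msr1 and Emr1 were lower, against 2.83% of probes, and Cd14 was higher, against 3.15%. Msr1 passed the criterion of the methods, against 0.165% of probes called lower, and none as higher, against 0.201%. The 3 rats of Group D lay below all of Group C for Msr1 and Emr1, against 3.78% of probes, and above them for Cd14, against 3.82%. With D12 included, Cd14 was still separated (against 1.93% of probes), Msr1 and Emr1 were not (against 2.37%), and Msr1 no longer passed the criterion of the methods (against 0.211%). Msr1 was then the 1 gene lower at an unadjusted p of 0.05, against 3.78% of probes, and the calls of Csf1r and Emr1 were lost. The plot of the differences shows the 3 comparisons side by side.

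**Figure D2:**
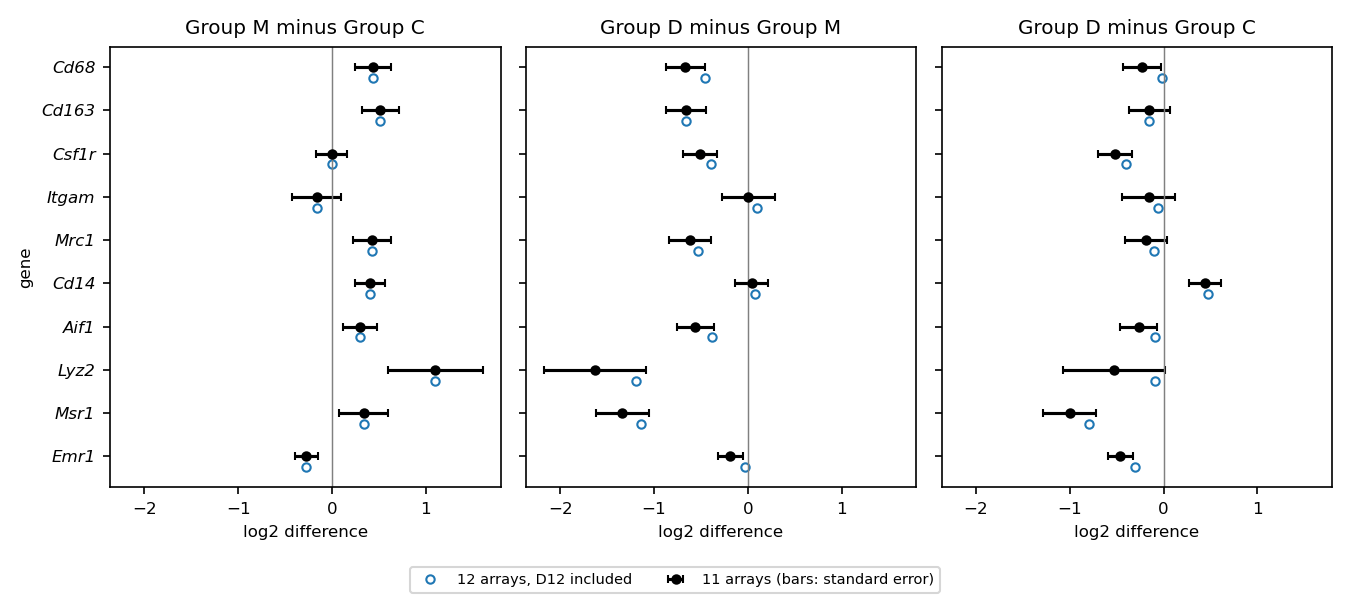
Log2 difference (horizontal axis) of each resident macrophage gene in the 3 comparisons, with black points and bars for the difference and standard error over 11 arrays and open blue circles for the difference over 12 arrays. In Group D minus Group M, Lyz2 (-1.63) and Msr1 (-1.34) lie farthest to the left, and the circles lie closer to 0 than the points for Cd68, Csf1r, Mrc1, Aif1, Lyz2, Msr1 and Emr1.

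Cd68 encodes a heavily glycosylated protein of the lysosomal membrane of phagocytes, and its probe lies in chr10:56481726-56481785 of rn4. The log2 signal was -0.13, 0.11, -0.49 and -0.42 in rats C1 to C4, 0.27, -0.32, 0.51 and 0.36 in M5 to M8, and -0.44, -0.45, -0.49 and 0.39 in D9 to D12. M5, M7 and M8 were the highest of the placebo rats, M6 was lower than C1 and C2, and D9, D10 and D11 lay between -0.49 and -0.44. Group M differed from Group C by 0.44 (SE 0.19, adjusted p = 0.205), Group D from Group M by -0.66 (SE 0.20, adjusted p = 0.122), and Group D from Group C by -0.23 (SE 0.20, adjusted p = 0.976). D12 stood at 0.39, the second highest of the 12 rats, and with it Group D differed from Group M by -0.45 and from Group C by -0.016. Without M6 the differences were 0.61 (SE 0.15, adjusted p = 0.0276) for Group M against Group C and -0.84 (SE 0.16, adjusted p = 0.0146) for Group D against Group M. M6 was picked by such values, so here and for the genes below these fits show dependence on that rat and are no test. Over all probes, the share called higher in Group M against Group C by the adjusted p rose from 0.102% to 7.52% without M6.

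Lyz2 encodes the lysozyme of phagocytes, which cuts bacterial cell walls, and its probe lies in chr7:56607738-56607797 of rn4. The file assigns this probe to 2 RefSeq transcripts, of which 1 was matched to Lyz2, so that signal of a near-identical lysozyme gene cannot be told apart from it. The log2 signal was 3.42, 5.07, 3.44 and 3.47 in rats C1 to C4, 5.47, 3.50, 5.63 and 5.19 in M5 to M8, and 3.00, 3.60, 3.35 and 5.09 in D9 to D12. The 12 rats took up a high and a low level with nothing between: C2, M5, M7, M8 and D12 lay from 5.07 to 5.63 and the other 7 rats from 3.00 to 3.60. Each group held rats at both levels once D12 is counted. Group M differed from Group C by 1.10 (SE 0.51, adjusted p = 0.228), which is 2.15-fold higher, Group D from Group M by -1.63 (SE 0.55, adjusted p = 0.139), and Group D from Group C by -0.53 (SE 0.55, adjusted p = 0.987). With D12, Group D differed from Group M by -1.19 and from Group C by -0.087. Without M6 the values were 1.58 (SE 0.39, adjusted p = 0.028) and -2.11 (SE 0.41, adjusted p = 0.0155) for Group M against Group C and Group D against Group M, and Lyz2 then also passed the criterion of the methods in both comparisons, against 3.59% of probes called higher and 4.22% lower by it without that rat.

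Cd163, the scavenger receptor through which macrophages take up haemoglobin bound to haptoglobin, gave a log2 signal of -0.29, 0.010, -0.65 and -0.57 in rats C1 to C4, 0.24, -0.41, 0.38 and 0.33 in M5 to M8, and -0.63, -0.56, -0.39 and -0.53 in D9 to D12. The probe lies in chr4:160423704-160423763 of rn4. M5, M7 and M8 were the 3 highest rats, C2 was the fourth, and M6 lay within the range of Group C. The differences were 0.51 (SE 0.20, adjusted p = 0.166) for Group M against Group C, -0.66 (SE 0.21, adjusted p = 0.132) for Group D against Group M and -0.15 (SE 0.21, adjusted p = 0.999) for Group D against Group C. D12, at -0.53, lay within the other rats of Group D, unlike in Cd68 and Lyz2, and with it the differences of Group D were -0.66 from Group M and -0.15 from Group C. Without M6 the first 2 differences were 0.69 (SE 0.16, adjusted p = 0.0231) and -0.84 (SE 0.17, adjusted p = 0.0168).

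Mrc1 encodes the mannose receptor, which binds sugars on microbes and on glycoproteins for uptake. Its probe spans chr17:88489156-88491763 of rn4 and crosses an intron. The log2 signal was -3.92, -3.79, -4.17 and -4.47 in rats C1 to C4, -3.57, -4.24, -3.28 and -3.56 in M5 to M8, and -4.34, -4.25, -4.24 and -3.93 in D9 to D12. M7, M8 and M5 were the 3 highest and M6 was again near the control rats. The differences were 0.42 (SE 0.21, adjusted p = 0.251) for Group M against Group C, -0.61 (SE 0.22, adjusted p = 0.158) for Group D against Group M and -0.19 (SE 0.22, adjusted p = 0.994) for Group D against Group C, and D9, D10 and D11 lay below all 4 rats of Group M, although M6 and D11 were close. With D12 the differences of Group D were -0.53 from Group M and -0.10 from Group C. Without M6 the first 2 were 0.62 (SE 0.16, adjusted p = 0.0341) and -0.80 (SE 0.17, adjusted p = 0.0202).

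Msr1 encodes the class A scavenger receptor, which binds modified lipoproteins and bacterial surfaces. The probe lies in chr16:56293586-56293645 of rn4, and the log2 signal was -4.16, -3.66, -4.53 and -4.43 in rats C1 to C4, -3.70, -4.38, -3.23 and -4.12 in M5 to M8, and -5.40, -5.03, -5.16 and -4.38 in D9 to D12. D9, D10 and D11 were the 3 lowest rats of all, with a mean of -5.20 ± 0.18 (SD, n = 3) against -3.86 ± 0.51 (SD, n = 4) in Group M and -4.20 ± 0.39 (SD, n = 4) in Group C. Group D differed from Group M by -1.34 (SE 0.28, adjusted p = 0.0775), which is 2.53-fold lower, and from Group C by -1.002 (SE 0.28, adjusted p = 0.633), which is 2.003-fold lower, close to the 2-fold limit of the criterion. With another background correction (normexp) these differences of Group D were smaller, -0.67 from Group M and -0.45 from Group C. Group M differed from Group C by 0.34 (SE 0.26, adjusted p = 0.48). D12 lay at -4.38, near C3, C4 and M6, and with D12 the differences of Group D were -1.13 from Group M and -0.80 from Group C. Msr1 was the gene with the lowest adjusted p of the 10 in both comparisons of Group D, and without M6 its difference from Group M was -1.51 (SE 0.27, adjusted p = 0.0129).

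Csf1r, the receptor for Csf1 and Il34 on which most macrophages depend, had a pair of probes on chromosome 18 that disagreed in part. The brighter one, which spans chr18:57105231-57105932 of rn4 and crosses an intron, gave a log2 signal of -1.91, -1.65, -1.52 and -1.74 in rats C1 to C4, -1.40, -1.99, -1.87 and -1.58 in M5 to M8, and -2.43, -1.88, -2.35 and -1.74 in D9 to D12. On the dimmer one, in chr18:57093036-57093095, the log2 signal was -2.88, -2.21, -2.44 and -2.92 in rats C1 to C4, -1.89, -2.73, -2.38 and -2.10 in M5 to M8, and -3.06, -2.98, -2.95 and -2.07 in D9 to D12. In falling order, the highest rats were M5, D12 and M8 on the dimmer probe and M5, C3 and M8 on the brighter one. Group M against Group C gave -0.0054 (SE 0.17, adjusted p = 0.992) on the brighter probe and 0.34 (SE 0.20, adjusted p = 0.358) on the dimmer one, a disagreement in size that leaves the direction of this comparison unsettled. Both probes had a lower mean in Group D: the differences from Group M were -0.51 (SE 0.18, adjusted p = 0.152) and -0.72 (SE 0.22, adjusted p = 0.124), and those from Group C were -0.51 (SE 0.18, adjusted p = 0.749) and -0.38 (SE 0.22, adjusted p = 0.905). With D12, which stood far above the other rats of Group D on the dimmer probe, the differences from Group M were -0.39 and -0.49 and those from Group C were -0.39 and -0.15 on the brighter and the dimmer probe.

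Cd14, which presents bacterial lipopolysaccharide to Tlr4 and Ly96, ran in another order over the rats. Its probe lies in chr18:29374990-29375049 of rn4, and the log2 signal was 1.84, 1.71, 1.73 and 2.05 in rats C1 to C4, 2.00, 2.25, 2.57 and 2.11 in M5 to M8, and 2.60, 2.16, 2.06 and 2.40 in D9 to D12. C2, a high rat for most of the genes, was the lowest for Cd14, and D9, the lowest rat for Csf1r, Aif1, Lyz2, Msr1 and Emr1, was the highest. All 4 rats of Group D lay above all 4 of Group C. The differences were 0.40 (SE 0.16, adjusted p = 0.175) for Group M against Group C, 0.041 (SE 0.17, adjusted p = 0.919) for Group D against Group M and 0.44 (SE 0.17, adjusted p = 0.789) for Group D against Group C, and leaving out each rat of the 11 in turn kept the first between 0.29 and 0.48. With D12 the last 2 were 0.073 and 0.47.

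Itgam encodes the alpha chain of complement receptor 3, an integrin of macrophages, monocytes and neutrophils. On the brighter of the overlapping probes printed above, the log2 signal was -1.45, -0.86, -2.39 and -1.57 in rats C1 to C4, -1.68, -1.75, -1.71 and -1.79 in M5 to M8, and -1.87, -1.82, -1.48 and -1.35 in D9 to D12. On the dimmer one it was -2.44, -1.77, -4.05 and -2.88 in rats C1 to C4, -2.88, -3.08, -2.60 and -3.04 in M5 to M8, and -3.15, -3.03, -2.65 and -2.38 in D9 to D12. Both probes placed C2 highest and C3 lowest of the 12 rats, so that Group C alone spanned the whole range, while M5 to M8 lay between -1.79 and -1.68 on the brighter probe. Group M differed from Group C by -0.16 (SE 0.26, adjusted p = 0.766), Group D from Group M by 0.0043 (SE 0.28, adjusted p = 0.994) and Group D from Group C by -0.16 (SE 0.28, adjusted p = 0.999) on the brighter probe, with -0.12 (SE 0.39, adjusted p = 0.905), -0.038 (SE 0.42, adjusted p = 0.97) and -0.15 (SE 0.42, adjusted p = 0.999) on the dimmer one. The standard errors were as large as the differences or larger, and without C2 the difference between Group M and Group C turned to 0.072. With D12, Group D differed from Group M by 0.099 and 0.10 and from Group C by -0.064 and -0.014 on the brighter and the dimmer probe.

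Emr1, now Adgre1, encodes an adhesion receptor used to recognise tissue macrophages in rodents. The file places its probe on an unplaced part of rn4, chrUn:64821266-64823251. The log2 signal was -2.54, -2.31, -2.28 and -2.37 in rats C1 to C4, -2.61, -2.55, -2.49 and -2.94 in M5 to M8, and -2.99, -2.70, -2.80 and -2.20 in D9 to D12. Group C was narrow, M8 and D9 were the lowest, and D12 was the highest of all rats. The differences were -0.27 (SE 0.12, adjusted p = 0.211) for Group M against Group C, -0.19 (SE 0.13, adjusted p = 0.443) for Group D against Group M and -0.46 (SE 0.13, adjusted p = 0.641) for Group D against Group C, and with D12 the last 2 were -0.028 and -0.30. Emr1 was the 1 gene with a lower mean in Group M than in Group C at an unadjusted p of 0.05 in the limma fit over 11 arrays, where p was 0.0461, and with D12 in the limma fit p was 0.125.

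Aif1 encodes Iba1, a calcium-binding protein of the actin cytoskeleton of macrophages. Its probes lie in chr20:3716264-3716323 and chr20:3716146-3716205 of rn4. On the brighter one the log2 signal was 1.24, 1.69, 1.17 and 1.74 in rats C1 to C4, 2.12, 1.41, 1.76 and 1.74 in M5 to M8, and 0.99, 1.25, 1.35 and 1.90 in D9 to D12, and on the dimmer one it was 0.69, 1.06, 0.77 and 1.35 in rats C1 to C4, 1.62, 0.85, 1.24 and 1.24 in M5 to M8, and 0.36, 0.73, 0.93 and 1.24 in D9 to D12. M5 was the highest and D9 the lowest rat on both probes. Group M differed from Group C by 0.30 (SE 0.18, adjusted p = 0.369) and 0.27 (SE 0.20, adjusted p = 0.459) on the brighter and the dimmer probe, Group D from Group M by -0.56 (SE 0.20, adjusted p = 0.152) and -0.56 (SE 0.22, adjusted p = 0.175), and Group D from Group C by -0.27 (SE 0.20, adjusted p = 0.954) and -0.29 (SE 0.22, adjusted p = 0.954). With D12 the differences of Group D were -0.38 and -0.42 from Group M, and -0.089 and -0.15 from Group C. The pair of probes gave the same direction in all 3 comparisons.

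**Figure D3:**
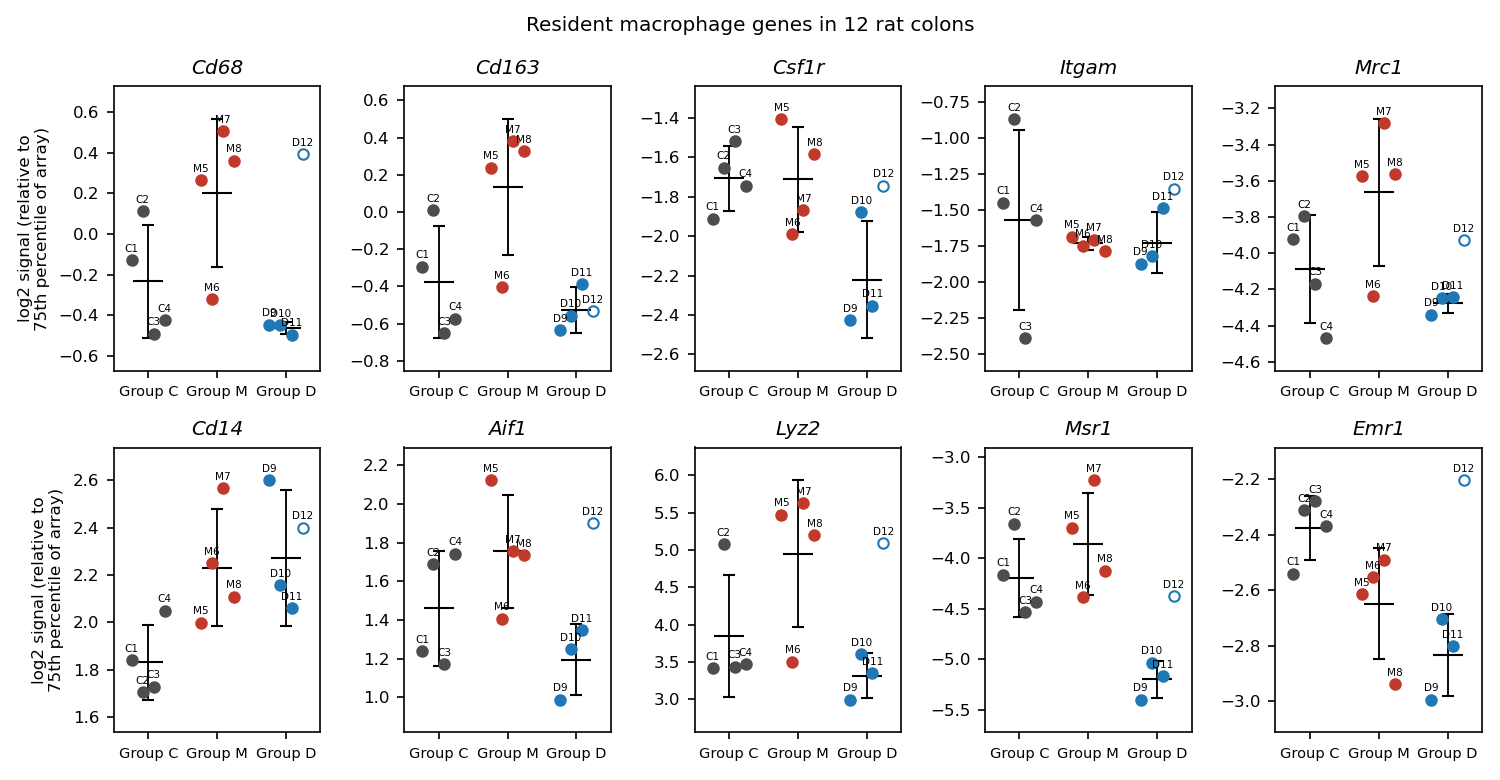
Log2 signal relative to the 75th percentile of the array (vertical axis) of the 10 genes, 1 panel each, in every rat of Group C (grey), Group M (red) and Group D (blue), with D12 as an open circle and horizontal marks and bars for the mean and SD of each group without D12. M6 lies low in the panels of Cd68, Cd163, Mrc1 and Lyz2, and D9, D10 and D11 lie below all other rats for Msr1. Each panel has its own vertical axis, which does not start at 0.

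Markers of other cells of the colon moved with some of these values. The summed linear signal of the B cell markers (6 of 7 measured, 3 of them well above background on all 12 arrays), in multiples of the 75th percentile, was 0.454, 6.13, 0.536 and 0.641 in C1 to C4, 9.31, 0.561, 5.2 and 6.53 in M5 to M8, and 0.398, 0.948, 0.764 and 14.9 in D9 to D12. That of the T cell markers (7 of 7 measured and well above background on all 12 arrays) was 0.746, 4.99, 0.652 and 1.05 in C1 to C4, 4.37, 0.651, 3.02 and 2.99 in M5 to M8, and 0.65, 1.19, 1.01 and 9.37 in D9 to D12. C2, M5, M7, M8 and D12, the 5 rats at the high level of Lyz2, were the 5 rats in which both sums were high, and no rat was high in only 1 of the 3 measures. The summed signal of the 10 macrophage genes, most of it from Lyz2, was 19.3, 43.5, 18.6 and 20.9 in C1 to C4, 56.2, 21.1, 62.5 and 47.7 in M5 to M8, and 18.1, 21.2, 19.2 and 46.1 in D9 to D12. The neutrophil markers (10 of 10 measured, with Elane not well above background on any array), which mark other makers of Lyz2, summed to 0.54 in C2, 0.563 in M5, 3.84 in M7, 0.733 in M8 and 0.561 in D12, and to between 0.268 and 0.32 in the other 7 rats. The eosinophil and dendritic cell sums were likewise highest in these 5 rats, at 0.341 to 0.68 against 0.0696 to 0.159, and 0.488 to 0.717 against 0.222 to 0.286. Of the 6 eosinophil markers, 1 was well above background on all 12 arrays and 2 on none. Of the 8 dendritic cell markers, 4 were so on all 12 arrays and 1 on none. Both sums rest in part on signals near background. The mast cell sum was 1.4 to 2.3 in these 5 rats, close above D9 at 1.38, and 6 of the 7 mast cell markers were higher in Group M against Group C at an unadjusted p of 0.05 (9.86% of all probes), with a median of 1.12. Epithelial and smooth muscle markers did not follow that order: the epithelial sum was 188.1, 141.7, 217.9 and 164.5 in C1 to C4, 162.7, 189.4, 218.2 and 186.7 in M5 to M8, and 226.0, 220.5, 156.6 and 133.4 in D9 to D12. The part of lymphoid tissue and of other leukocytes in the differences of the macrophage genes was not tested, and in whole colon fewer cells of a type and less RNA per cell cannot be told apart.

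**Figure D4:**
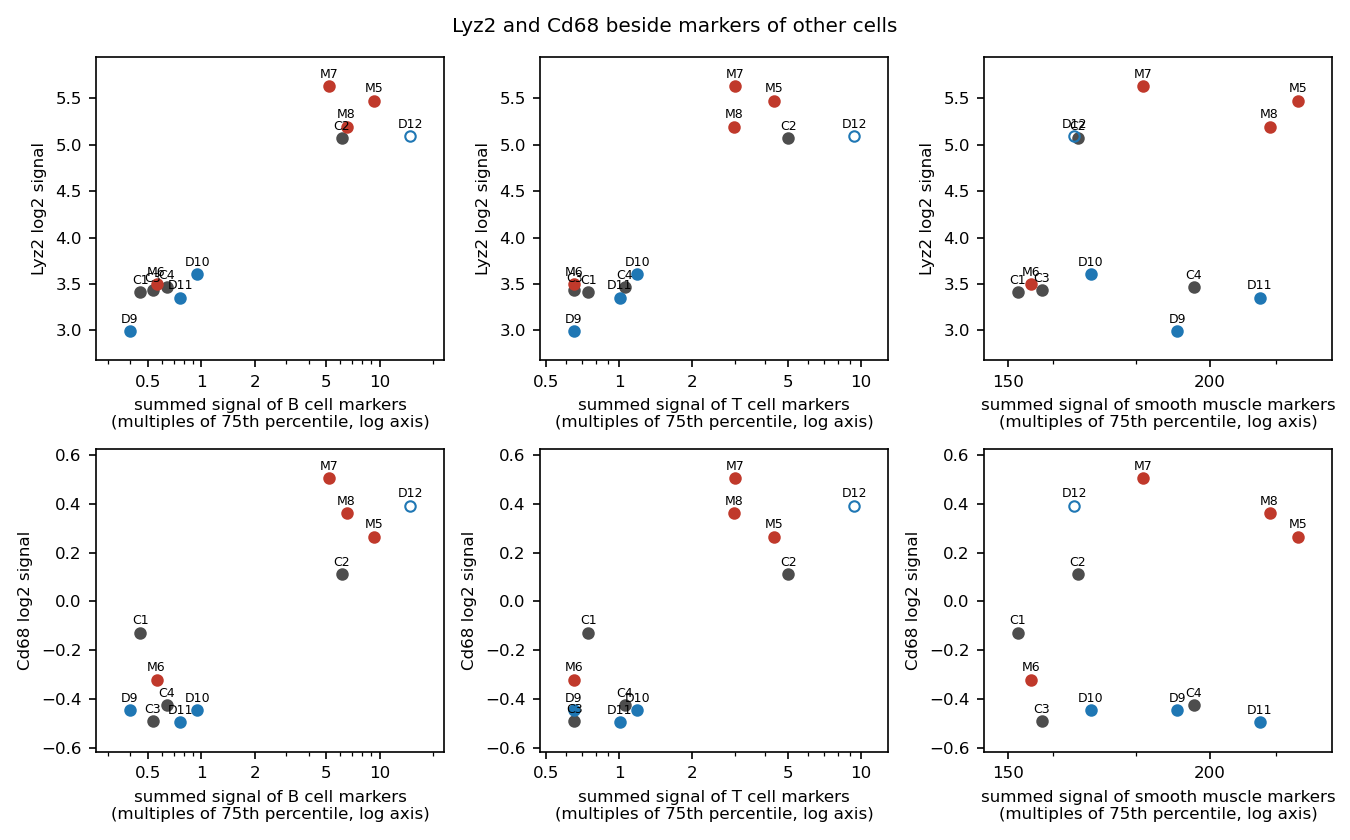
Log2 signal of Lyz2 (top) and Cd68 (bottom) in each of the 12 rats against the summed signal of B cell, T cell and smooth muscle markers (horizontal log axes, multiples of the 75th percentile), with Group C in grey, Group M in red, Group D in blue and D12 as an open circle. For Lyz2 the rats C2, M5, M7, M8 and D12 form a group of their own at 5.07 to 5.63 that is also the group with high B and T cell sums, while the smooth muscle sums of the high and low rats overlap.

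The genes that act with these receptors were taken from 12 lists of 122 entries, of which 118 were measured, by 117 different genes. None of them passed the adjusted threshold in Group M against Group C (0 genes, lowest adjusted p = 0.0882) or in Group D against Group M (0 genes, lowest adjusted p = 0.0723). Without M6, 42 of the 117 passed it as higher and 7 as lower in Group M against Group C, against 7.52% and 8.65% of all probes, and 4 as higher and 52 as lower in Group D against Group M, against 7.51% and 7.45%. The higher calls of the first comparison included 7 of 9 monocyte chemokines and receptors and 8 of 11 products of alternative activation. At an unadjusted p of 0.05 over the 11 arrays, 38 were higher and 10 lower in Group M against Group C, against 9.86% and 12.9% of all probes, and 11 were higher and 53 lower in Group D against Group M, against 11.8% and 9.85%. With D12 these counts were 30, 9, 3 and 33, against 8.38%, 10.1%, 6.13% and 5.92%. The criterion of the methods was passed by 12 as higher and 0 as lower in Group M against Group C, against 1.37% and 0.962% of all probes, and by 0 as higher and 21 as lower in Group D against Group M, against 1.14% and 1.51%. The genes named below are among the 2 of each list with the lowest p in Group M against Group C, so that their own values there are the extremes of their lists. Group D against Group M uses the same values of Group M. A difference of opposite sign in that comparison therefore follows in part from the same choice.

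The monocyte chemokines and their receptors, which draw monocytes from the blood, had the highest median of the lists, 1.20 in Group M against Group C and -1.79 in Group D against Group M over 9 genes. By the criterion of the methods 5 of the 9 were higher in the first comparison, against 1.37% of all probes, and 6 lower in the second, against 1.51%. Ccl7, a ligand of Ccr2, differed by 3.17 (adjusted p = 0.0882) in Group M against Group C and -3.42 (adjusted p = 0.0773) in Group D against Group M. Ccr2, the receptor that monocytes use to enter tissue, differed by 1.10 (adjusted p = 0.0924) in Group M against Group C and -1.32 (adjusted p = 0.0744) in Group D against Group M. The log2 signal of Ccr2 was -6.19, -5.72, -6.07 and -6.67 in rats C1 to C4, -5.10, -5.57, -4.48 and -5.09 in M5 to M8, and -6.24, -6.64, -6.27 and -6.56 in D9 to D12. M5 to M8 lay above every rat of Group C and of Group D, M6 and D12 included. Of all probes, 4.07% lay apart upwards in Group M against Group C, and 2.31% downwards in Group D against Group M with D12. Ccr2 is named for its low p in the first comparison, so its separation from Group C follows in part from that choice. Through the shared values of Group M, so does its separation from Group D. For Cd68, Cd163, Mrc1 and Lyz2, M6 lay within the range of Group C. These are the members that passed the adjusted threshold without M6, so that this too follows in part from their choice. Among the other members, M6 lay above all of Group C for Cd14 (2.25). It lay below all of Group C for Emr1 (-2.55) and for the brighter probe of Csf1r (-1.99).

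Among the 7 colony-stimulating factors and receptors the median was 0.76 in Group M against Group C and -0.59 in Group D against Group M. Both ligands of Csf1r were named by the rule, and their differences had opposite signs. Csf1 differed by 0.76 (adjusted p = 0.100) in Group M against Group C and -0.59 (adjusted p = 0.15) in Group D against Group M, with a log2 signal of -1.18, -1.07, -1.49 and -1.35 in rats C1 to C4, -0.73, -0.89, 0.023 and -0.46 in M5 to M8, and -0.91, -1.26, -1.14 and -0.52 in D9 to D12. Il34 differed by -1.09 (adjusted p = 0.126) in Group M against Group C and 0.90 (adjusted p = 0.202) in Group D against Group M, with 2.24, 1.79, 2.24 and 2.63 in rats C1 to C4, 1.49, 1.92, 0.30 and 0.85 in M5 to M8, and 1.49, 2.22, 2.40 and 0.94 in D9 to D12. For Csf1, named for its low p, all 4 rats of Group M lay above all 4 of Group C, as for 4.07% of all probes. Csf1r, which was not picked by p, showed no such separation.

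The 8 measured genes of lipopolysaccharide recognition, the partners of Cd14, had medians of -0.12 and 0.14 in the same comparisons. At an unadjusted p of 0.05, 0 of 8 were higher and 1 lower in Group M against Group C (9.86% and 12.9% of all probes), and 3 were higher and 0 lower in Group D against Group M (11.8% and 9.85%). Tlr4, the signalling receptor, differed by -0.30 (adjusted p = 0.175) in Group M against Group C and 0.35 (adjusted p = 0.161) in Group D against Group M, in the opposite direction to Cd14 in Group M. Tollip, an adaptor that dampens the pathway, differed by -0.22 (adjusted p = 0.224) in Group M against Group C and 0.26 (adjusted p = 0.211) in Group D against Group M. The 7 integrin partners of Itgam had medians of 0.36 and -0.46. Of these, Itgal, the alpha chain of the leukocyte integrin LFA-1, differed by 1.57 (adjusted p = 0.13) in Group M against Group C and -1.80 (adjusted p = 0.124) in Group D against Group M, and its ligand Icam1 by 1.22 (adjusted p = 0.115) in Group M against Group C and -1.54 (adjusted p = 0.0948) in Group D against Group M.

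The 16 lysosomal proteins, with which Cd68 belongs by location, had medians close to 0 in the same comparisons, -0.0083 and 0.039. At an unadjusted p of 0.05, 1 gene was higher and 5 lower in Group M against Group C (9.86% and 12.9% of all probes), and 2 were higher and 2 lower in Group D against Group M (11.8% and 9.85%). Ctss, a protease of antigen-presenting cells, differed by -0.47 (adjusted p = 0.111) in Group M against Group C and 0.30 (adjusted p = 0.259) in Group D against Group M, and Npc2, a cholesterol carrier, by -0.26 (adjusted p = 0.145) in Group M against Group C and 0.13 (adjusted p = 0.476) in Group D against Group M. The 8 genes of haem and iron handling, the pathway of Cd163, had medians of -0.11 and -0.099. Within it Hmox1, which breaks down haem, differed by 2.26 (adjusted p = 0.0996) in Group M against Group C and -2.35 (adjusted p = 0.0973) in Group D against Group M, and Slc40a1, the iron exporter, by -0.64 (adjusted p = 0.105) in Group M against Group C and 0.42 (adjusted p = 0.205) in Group D against Group M. Hmox1 thus had its higher mean, and Slc40a1 its lower mean, in Group M.

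The Fc receptors and their adaptors, the scavenger and clearance receptors, and the C1q and complement receptors had medians of 0.34, 0.14 and 0.25 in Group M against Group C, and -0.69, -0.48 and -0.48 in Group D against Group M. At an unadjusted p of 0.05, 8 of 10, 7 of 13 and 5 of 6 of their genes were lower in Group D than in Group M, against 9.85% of all probes. Fcgr2a, an Fc receptor for immunoglobulin G, differed by 0.33 (adjusted p = 0.107) in Group M against Group C and -0.26 (adjusted p = 0.166) in Group D against Group M, and Tyrobp, the adaptor DAP12, by 0.56 (adjusted p = 0.142) in Group M against Group C and -0.74 (adjusted p = 0.11) in Group D against Group M. Olr1, a receptor for oxidised lipoprotein that was well above background on 1 of the 3 arrays of D9 to D11, differed by 2.57 (adjusted p = 0.109) in Group M against Group C and -3.17 (adjusted p = 0.09) in Group D against Group M, and Clec10a, a lectin of macrophages and dendritic cells, by 1.17 (adjusted p = 0.111) in Group M against Group C and -1.40 (adjusted p = 0.0963) in Group D against Group M. The anaphylatoxin receptors C3ar1 and C5ar1 belong to the third list. C3ar1 differed by 0.74 (adjusted p = 0.0997) in Group M against Group C and -0.93 (adjusted p = 0.0808) in Group D against Group M, and C5ar1 by 0.69 (adjusted p = 0.147) in Group M against Group C and -1.02 (adjusted p = 0.0995) in Group D against Group M.

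The products of inflammatory macrophages (13 genes) had medians of 0.13 and -0.36, and those of alternative activation and anti-inflammatory action (11 genes) had 0.90 and -1.45. Ptgs2, the inducible prostaglandin synthase, well above background on 3 of 4 arrays of Group C and all others, differed by 1.60 (adjusted p = 0.101) in Group M against Group C and -0.81 (adjusted p = 0.311) in Group D against Group M, and Il1b, an inflammatory cytokine, by 1.26 (adjusted p = 0.206) in Group M against Group C and -1.22 (adjusted p = 0.262) in Group D against Group M. Il10, an anti-inflammatory cytokine, differed by 2.58 (adjusted p = 0.0961) in Group M against Group C and -2.70 (adjusted p = 0.0867) in Group D against Group M. Its probe was well above background on 2 of the 4 arrays of Group C, all 4 of Group M and 1 of D9 to D11, so that these differences rest in part on signals near background. Il1rn, the antagonist of the interleukin 1 receptor, differed by 1.94 (adjusted p = 0.149) in Group M against Group C and -1.88 (adjusted p = 0.189) in Group D against Group M. The 10 macrophage transcription factors had medians of 0.31 and -0.32. Maf, which many resident macrophages express, differed by -0.38 (adjusted p = 0.135) in Group M against Group C and 0.095 (adjusted p = 0.739) in Group D against Group M.

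**Figure D5:**
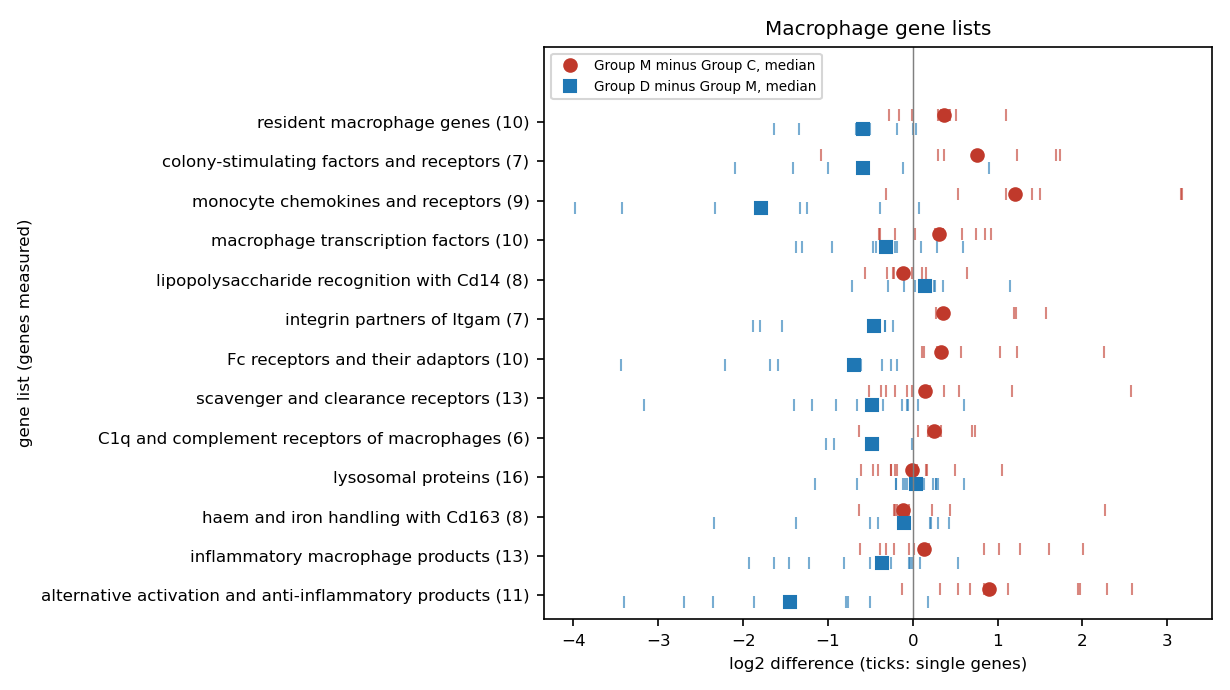
Log2 differences of the resident macrophage genes and of 12 lists of related genes in Group M minus Group C (red) and Group D minus Group M (blue), with a tick for each gene and a circle or square for the median of the list. Monocyte chemokines and receptors (1.20 and -1.79) and alternative activation products (0.90 and -1.45) lie farther from 0 than the resident macrophage genes (0.37 and -0.59), and the median of the lysosomal proteins lies close to 0. Both comparisons share Group M.

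Over the 12 arrays, the genes whose centred log2 profile was most like that of a member were found by the root mean square difference. The candidates were 12541 probes of other named genes well above background throughout (12540 for Csf1r). Of all probes, named or not, 20315 were well above background on all 12 arrays. For Cd163 they were Rcn1 (0.12), Mrc1 (0.15) and Kcnk12 (0.16), so that a fellow member, the mannose receptor, was the second closest of all candidates. For Cd68 they were Dab2 (0.10), Lpgat1 (0.10) and Ube2q2 (0.10), and Mrc1 was the nearest member, with 51 probes closer. For Csf1r they were Yeats4 (0.14), Tubgcp2 (0.14) and Wdhd1 (0.15), and the nearest member was Aif1, with 667 probes closer. For Cd14 they were C1galt1 (0.11), Rab3gap2 (0.12) and Dll1 (0.13), and every other member had at least 7314 probes closer to Cd14 than it. These are likenesses of level over the same 12 arrays, described without a test.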

How the data were processed

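RNA of 12 rat colons was hybridised to 12 one-colour Agilent 60-mer arrays. RNA was isolated with Trizol and accepted above a fixed integrity number, labelled with Cy3 and read with Feature Extraction (version 10.5.1.1 per the file headers, build rn4). The deposited scanner files hold the processed signal, an intensity after the software's background subtraction. The authors also deposited a matrix of log2 intensities per probe, used here as an alternative. The authors analysed 11 of the arrays in Rosetta Resolver.

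Here, spots flagged as outliers and 4259 control spots of 62976 were left out, log2 of the processed signal was reduced by the log2 of the array's 75th percentile, and spots of 1 probe were averaged, which left 30367 probes. The 3 groups were fitted in 1 model over 11 arrays (lmFit and eBayes of limma 3.58.1, R 4.3.3), with Benjamini-Hochberg adjustment over all probes and a threshold of 0.05. The criterion of the methods was computed on the same values. A probe was called well above background on an array where most of its spots, or as many as not, carried the software's flag. The 75th percentile lay between 1434 and 1950 intensity units and 75.5% to 77.5% of spots were well above background. The number of arrays limits the precision.

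Every probe of the 10 genes is reported. Of each list of related genes, those past the adjusted threshold were to be named or, where there were fewer than 2, the 2 with the smallest p in Group M against Group C among probes that 1 group or more had well above background throughout. Of the genes this rule names, 1 is not reported here. The members and lists were chosen with earlier results of these data known. The fit was tested on simulated data. Alternatives were D12 included, normexp (offset 50), quantile or median scaling, the deposited matrix, outlier spots kept, dim probes left out, the replicate number as a block, array weights, 2 groups per model, the mean of a gene's probes, and each rat left out in turn. Promoter windows and names of transcripts came from RefSeq (GRCr8). Figures were drawn with matplotlib 3.10.9.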

Additional observations from a re-analysis of the deposited data

Results flagged for a closer look

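The extreme rat of each group of 4 was set against the range of its group for the 13 probes, D12 included, and 3 of 39 such groups held a rat far from the other 3, where chance gives about 1 in 20. Lyz2 in Group C stood at a log2 signal of 5.07 in C2 and at 3.42 to 3.47 in the other 3 rats. Cd68 in Group D stood at 0.39 in D12 and at -0.49 to -0.44 in the other 3. The dimmer probe of Csf1r in Group D stood at -2.07 in D12 and at -3.06 to -2.95 in the other 3. Both rats were also those of their group with the highest B cell and T cell marker sums. Whether these sums account for the 3 values was not tested.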

How the results depend on the processing

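Under the 22 alternatives, the direction of the median of the 10 genes did not change in any of the 3 comparisons, and it moved by less than the spread between rats. The size of the median did change. In Group D against Group C it was -0.25 in the main fit and -0.096 with all 12 arrays. Over the rats left out it ran from -0.39 to -0.12 in that comparison. The count at an adjusted p of 0.05 stayed at 0 in Group D against Group C. With array weights it was 5 in Group M against Group C (Cd68, Cd163, Mrc1 and Lyz2 higher, Emr1 lower) and 7 in Group D against Group M (Cd68, Cd163, Csf1r, Mrc1, Aif1, Lyz2 and Msr1), and without dim probes it was 1 in Group D against Group M (Msr1), with fewer probes tested. Leaving out 1 rat gave 0 to 4 in Group M against Group C and 0 to 6 in Group D against Group M, the higher counts without M6. By the criterion of the methods, the count in Group D against Group C was 0 with all 12 arrays, normexp, quantile normalisation, median scaling and the deposited matrix, and 0 to 1 over the rats left out (0 without C1, C2, D9 or D11). In Group D against Group M it was 0 with normexp, 2 with only the 2 groups in the model (Lyz2 and Msr1), and 1 to 2 over the rats left out. In Group M against Group C it was 0 to 1 over the rats left out, with Lyz2 passing without C2 or without M6. The cause was not tested.

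Differences near 0 changed sign. Csf1r in Group M against Group C was 0.0018 with normexp, 0.0082 with quantile normalisation, 0.0057 with the deposited matrix, 0.16 with array weights, 0.17 as the mean of its probes and -0.11 to 0.088 over the rats left out (0.088 without M6). Itgam in Group D against Group M was -0.016 with normexp, -0.0054 with the replicate block, -0.017 as the mean of its probes and -0.12 to 0.078 over the rats left out. Emr1 in Group D against Group M was 0.0024 with array weights. Over the rats left out, Itgam ran from -0.44 to 0.072 in Group M against Group C and from -0.43 to 0.076 in Group D against Group C (both turned without C2), and Cd14 from -0.12 to 0.15 in Group D against Group M.

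Whether rats of the same number were matched was not stated, and the main fits did not pair them. Their deviations from the group means correlated between -0.559 and 0.384, which cannot decide whether they were matched. With the replicate number as a block, 0 genes passed the adjusted threshold in each comparison and the medians were 0.37, -0.59 and -0.24 for Group M against Group C, Group D against Group M and Group D against Group C. The block and the array weights were not combined with the criterion of the methods. A fit with the slide as a block was not run, since Group D alone lay on slide 2.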
